A study of Mus musculus with 14 samples.

Results

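The circadian clock of mammalian cells is a loop of transcription factors, and 10 genes of its feedback side were followed here in the progenitor cells of newborn mouse epidermis: Ciart, Per1, Per2, Per3, Cry1, Cry2, Nr1d1, Nr1d2, Dbp and Bhlhe40. A row of a peak list was counted as theirs where the gene name column, split at the slash, held one of the 10 symbols. The set was chosen by inspecting the same peak lists in which its values are given, where Ciart stood among the leading Ring1b genes without Polycomb marks, so the counts and ratios below describe the 10 genes and were not tested. Of the 10 genes, 4 were named in at least 1 of the 6 replicate lists, in 7 of 26186 rows. Over all 21631 protein-coding genes of the autosomes and chromosome X, 29.9% were named in at least 1 row.

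In the loop, the activators Clock and Bmal1 (listed under its older symbol Arntl) bind a DNA motif called the E-box and switch on the Per and Cry genes, whose proteins then return to block the activators. Nr1d1 and Nr1d2 encode the REV-ERB receptors, which repress Bmal1 through ROR elements, and Dbp encodes an activator that binds D-boxes. Ciart (also called Chrono) encodes a further repressor of Clock and Bmal1, and Bhlhe40 (Dec1) a repressor that competes for E-boxes. Many of these genes are themselves driven through E-boxes, so their transcription rises and falls over the day in most tissues, skin included.

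The cells came from mice that carried the Krt14-RFP and Krt10-H2B-GFP reporters, taken at postnatal day 0. Epidermis was peeled from the back skin, and cells with surface Sca1, high red Krt14 reporter and no green Krt10 reporter were sorted, which selects the basal layer. All samples shared this genotype and sort, and the sources used here give no hour of the day for collection. Chromatin of 6000000 cells was precipitated for Ring1b, the catalytic core of Polycomb repressive complex 1, and of 400000 cells for each histone mark. H2AK119ub is the mark placed by that complex and H3K27me3 the mark placed by Polycomb repressive complex 2. Each had 2 replicates, which the labels do not tie to separate animals or litters, so an SD measures only the spread between these samples. Peak lists give no expression, and a strong signal in few cells cannot be told apart from a weak one in many. Of the basal markers Krt5, Krt14, Trp63, Itga6, Itgb4 and Col17a1, 0 of 6 had a promoter row in any list. In the authors' union lists, promoter rows named 17.8% (Ring1b), 12.1% (H2AK119ub) and 12.5% (H3K27me3) of all protein-coding genes. A row of any class named 2 of 6, against 29.9% of all protein-coding genes. Itgb4 had gene body rows of Ring1b replicate 1 and H2AK119ub replicate 2, and Col17a1 a distal row of Ring1b replicate 1. Krt5, Krt14, Trp63 and Itga6 had no row at all, as was common. Markers of other cells of the skin did carry rows. At the promoter in both replicates, 5 of 13 had H3K27me3 and 5 of 13 had H2AK119ub, against 8.87% and 6.91% of all protein-coding genes. These were the fibroblast genes Col1a1 and Pdgfra and the Merkel cell genes Atoh1, Krt8 and Krt18. In contrast, Col1a2, Tyr, Pmel, Cd207, Ptprc and Pecam1 had no row, and Mitf and Krt20 had only a distal row. Of 5 suprabasal markers, Lor had Ring1b promoter rows in both replicates and neither mark. Krt1 had a promoter row of H2AK119ub in replicate 2 alone, Krt10 had only distal rows, and Ivl and Flg had none. The lists held from 3058 rows (Ring1b replicate 2) to 6040 rows (H3K27me3 replicate 1).

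The promoter sequences of 8 of the 10 genes were searched for the motifs of the loop, and E-boxes or D-boxes were found at 4: Ciart, Per1, Cry1 and Per3. RefSeq windows of 300 bases, from 250 before to 50 after an annotated start (GRCm38.p6, the assembly behind mm10), matched 8 of the 10 genes by symbol in 9 windows, with 2 starts for Per1. No window was matched for Per2 and Bhlhe40. The windows below are those of Ciart and Dbp, which carried Ring1b, and of Per1, Per3 and Cry1, which had no row in any list. Capitals mark E-boxes (CACGTG) and D-boxes (TTATGTAA or TTACGTAA), searched on both strands, and each window is printed 5′ to 3′ along its gene.
Ciart, chr3:95882179-95882478, minus strand: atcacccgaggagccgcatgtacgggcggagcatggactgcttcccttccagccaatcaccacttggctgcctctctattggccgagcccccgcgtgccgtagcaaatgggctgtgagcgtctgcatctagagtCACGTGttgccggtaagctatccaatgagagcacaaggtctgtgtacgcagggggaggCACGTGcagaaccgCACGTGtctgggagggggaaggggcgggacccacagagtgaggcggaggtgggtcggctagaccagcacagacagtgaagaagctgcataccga
Dbp, chr7:45704997-45705296, plus strand: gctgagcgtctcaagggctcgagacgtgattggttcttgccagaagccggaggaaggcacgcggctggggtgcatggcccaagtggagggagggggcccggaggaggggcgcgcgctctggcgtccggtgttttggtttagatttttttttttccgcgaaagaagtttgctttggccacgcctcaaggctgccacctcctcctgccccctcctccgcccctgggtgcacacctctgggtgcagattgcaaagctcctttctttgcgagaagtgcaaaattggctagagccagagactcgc
Per1, chr11:69098699-69098998, plus strand: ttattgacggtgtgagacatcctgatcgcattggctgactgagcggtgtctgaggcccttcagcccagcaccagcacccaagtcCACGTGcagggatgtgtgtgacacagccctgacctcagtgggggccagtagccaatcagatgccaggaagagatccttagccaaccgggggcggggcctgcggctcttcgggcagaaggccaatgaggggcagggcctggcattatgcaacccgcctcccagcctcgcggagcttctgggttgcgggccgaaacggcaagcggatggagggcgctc
Per3, chr4:151044616-151044915, minus strand: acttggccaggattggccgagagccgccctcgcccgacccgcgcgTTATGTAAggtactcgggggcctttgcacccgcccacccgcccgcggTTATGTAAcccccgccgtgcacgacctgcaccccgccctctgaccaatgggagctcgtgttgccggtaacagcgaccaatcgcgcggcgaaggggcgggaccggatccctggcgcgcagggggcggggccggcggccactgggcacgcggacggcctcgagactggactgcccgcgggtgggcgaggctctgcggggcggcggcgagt
Cry1, chr10:85185005-85185304, minus strand: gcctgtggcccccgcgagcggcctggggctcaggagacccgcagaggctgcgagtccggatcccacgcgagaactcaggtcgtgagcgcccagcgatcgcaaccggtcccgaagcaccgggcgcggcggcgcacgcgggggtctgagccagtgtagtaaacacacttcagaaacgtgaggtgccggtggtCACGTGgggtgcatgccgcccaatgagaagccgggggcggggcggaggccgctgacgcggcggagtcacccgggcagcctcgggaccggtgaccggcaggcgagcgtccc

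The Ciart window held 3 E-boxes, which began 116, 58 and 44 bases before the start. At least 3 E-boxes were found in 23 of 21045 windows of protein-coding genes (0.109%), and at least 1 in 7.91%. Per1 had 1 E-box in the printed window, 166 bases before the start, and none in its other window (chr11:69099902-69100201). Cry1 had 1 E-box, 60 bases before the start. The Per3 window held 2 D-boxes, 205 and 158 bases before the start. At least 1 D-box was found in 1.04% of all windows and at least 2 in 7 windows (0.0333%). The Dbp window held neither motif. The E-box variant CACGTT lay in the windows of Cry1, Cry2 and Nr1d1, against 4.72% of all windows. The core of the ROR element (TAGGTCA) and the cyclic AMP response element (TGACGTCA), which lay in 2.35% and 2.26% of all windows, were not found in these letters in any of the 9 windows. The GC box (GGGCGG, 46.7% of all windows) lay in every member window except that of Nr1d1. None of the motifs listed here overlapped another one in these windows except the GC boxes, which overlap among themselves in Cry1.

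**Figure D1:**
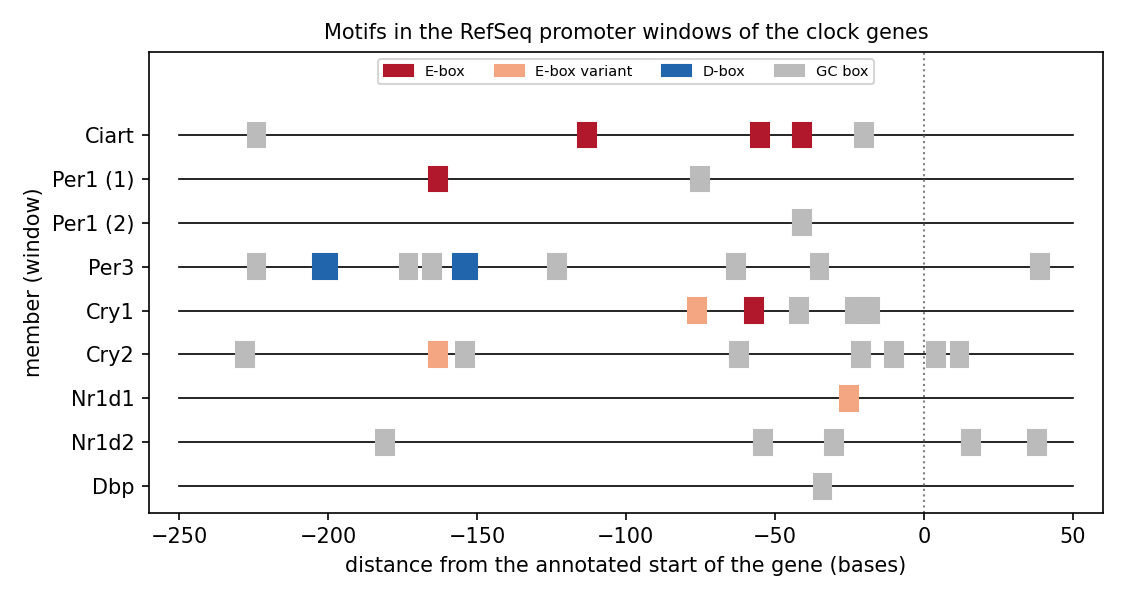
Positions of motifs in the 9 RefSeq promoter windows of 8 clock genes. The horizontal axis is the distance in bases from the annotated start (dotted line), each line is a window, and coloured blocks are E-boxes, the E-box variant, D-boxes and GC boxes to scale. Ciart has 3 E-boxes, Per1 and Cry1 have 1 each, and Per3 has 2 D-boxes.

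The windows of Ciart and Dbp were not the richest of the group in G+C or CpG. They had 61.3% and 60.3% G+C and observed over expected CpG ratios of 0.683 and 0.665. Windows above both in each measure, of genes with no Ring1b promoter row, were those of Per3 (73.3% and 1.02), Cry1 (72.3% and 0.979), Cry2 (70.3% and 0.826) and Nr1d2 (65.7% and 0.806). The windows of Per1 had more G+C (63.3% and 64.7%) but CpG ratios of 0.536 and 0.675, both below Ciart and the second above Dbp. Nr1d1 was lowest, at 56.3% and 0.404. The median over all windows was 56.7% and 0.574. The median over 653 windows of genes with Ring1b and neither mark was 64.7% and 0.822, so Ciart and Dbp lay below the median of that class in both measures.

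Ring1b was listed at the promoters of the repressor Ciart and the D-box activator Dbp, and both replicates named each of them. These were 2 of 10 genes, against 9.17% of all protein-coding genes with a Ring1b promoter row in both replicates. That background share was 16.3% by replicate 1 alone, 10.7% by replicate 2 alone and 17.8% in the authors' union lists, with the members still at 2 of 10. H2AK119ub and H3K27me3 had promoter rows at 0 of 10 genes in either replicate. Over all genes the shares were 6.91% and 8.87% in both replicates, and 12.1% and 12.5% in the union lists. Ciart and Dbp therefore both fell into the class with Ring1b and no promoter row of either mark, which held 2.81% of all genes (8.82% by replicate 1 alone), and 0 of 10 carried all 3, against 3.42%. No row named Per1, Per2, Per3, Cry1, Cry2 or Nr1d2. Since the lists hold only peaks that passed the authors' calling, a gene with no row may still have signal under that limit.

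**Figure D2:**
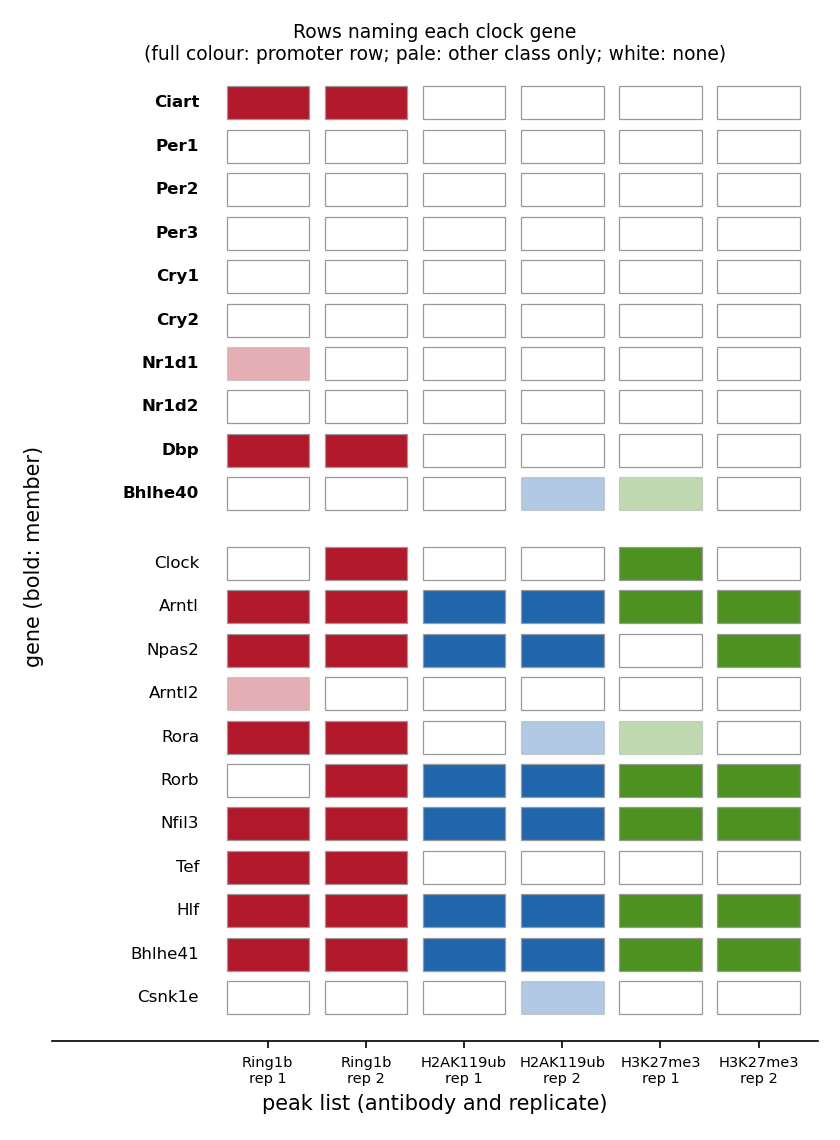
Rows that name each clock gene, by antibody and replicate (columns), for the 10 members in bold and the 11 further clock genes with a row in any list (rows). Full colour marks a promoter row, pale colour a row of another location class only, and white no row. Ciart and Dbp are filled for Ring1b in both replicates and white for both marks, and 6 members are white throughout.

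Ciart had the strongest Ring1b signal of the group. In replicate 1 its peak (chr3:95881691-95883104, mm10, 1414 bp) held 222 ChIP reads and 26 input reads, a ratio of 8.54 with a 95% exact binomial (Clopper-Pearson) interval of 5.67 to 13.4. In replicate 2 (chr3:95881761-95883019, 1259 bp) it held 157 and 22 reads, a ratio of 7.14 with an interval of 4.55 to 11.7. Such intervals cover counting error only. Library totals were not known, so here and below a ratio of 1 need not mark the background level. Both replicates were thus high, their intervals overlapped, and the mean was 7.84 ± 0.991 (SD, n = 2). Input counts of the 2 Ring1b lists were alike, and at Dbp they were 17 and 19 reads by strand in both. The 2 Ring1b ratios of a gene may thus share the same input reads. They cannot be taken as independent, and their SD may leave out the error of the input. The ChIP reads came evenly from both strands, 123 and 99 in replicate 1 and 74 and 83 in replicate 2. The replicate 2 peak lay wholly inside that of replicate 1. The deposited p-values of these peaks were 3.69e-09 and 1.09e-08.

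Within the Ring1b lists the Ciart ratio ranked 29 of 3493 promoter rows in replicate 1 and 39 of 2331 in replicate 2. By peak height, which does not depend on the input, it ranked lower, at 196 and 216, with maxima of 67 and 53. Among the 608 genes with Ring1b and neither mark, only Mllt1, named here after its values were seen, had a higher mean ratio (8.23), and it had 7 input reads in replicate 2. By height, only Rab8a was above Ciart in replicate 1, and 4 genes were in replicate 2: Rab8a, Cdkn2c, Mllt1 and Mga. Of the 739 genes with all 3, 25 had a higher mean ratio than Ciart. Per kilobase of peak, Ciart held 157 and 125 ChIP reads in replicates 1 and 2, and Dbp 63.1 and 58.0. Input reads per kilobase were fewer at Ciart, at 18.4 and 17.5, than at Dbp, at 25.8 and 26.1. Ciart thus exceeded Dbp in ChIP reads alone as well as in the ratio.

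The Ciart peak covered the whole promoter window printed above, its 3 E-boxes included, in both replicates. It overlapped the Ciart gene (chromosome 3, 95878500 to 95882257) by 567 bp in replicate 1 and 497 bp in replicate 2, and the rest lay upstream. The whole peak also lay inside the span of the noncoding RNA gene C920021L13Rik (95871522 to 95889093). The protein-coding gene BC028528 began 841 bp beyond the peak of replicate 1. No mark peak lay near: the closest H3K27me3 peaks were at the promoter of Car14, a carbonic anhydrase gene, 18.7 kb and 19.1 kb from the replicate 1 peak in the replicates of that mark. The closest H2AK119ub peaks lay 89.7 kb away in replicate 1 of that mark and 20.8 kb away in replicate 2.

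By the nearest pair of log2 ratios, out of 606 other genes with Ring1b and neither mark, the genes most like Ciart were Tesmin, a gene of testis, Usp31, a deubiquitinase gene, and Anp32b, a histone chaperone gene. Tesmin had 132 ChIP and 19 input reads in replicate 1 and 84 and 15 in replicate 2. Usp31 had ratios of 8.20 and 5.00 over only 5 input reads in each replicate. Anp32b had ratios of 5.45 and 7.38, so the replicates were ordered the other way round from Ciart.

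Dbp carried Ring1b at a level close to the middle of the lists. In replicate 1 its peak (chr7:45704043-45705436, mm10, 1394 bp) held 88 ChIP and 36 input reads, a ratio of 2.44 with a counting interval of 1.64 to 3.71. In replicate 2 (chr7:45704001-45705380, 1380 bp) it held 80 and 36 reads, a ratio of 2.22 with an interval of 1.48 to 3.39. The mean was 2.33 ± 0.157 (SD, n = 2). The medians over all Ring1b rows were 2.40 and 2.29, so Dbp stood at 1.02 and 0.971 times the median of its list. It ranked 1694 of 3493 and 1271 of 2331 promoter rows by ratio and 797 and 629 by height. Its deposited p-values were 0.00485 and 0.00128.

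**Figure D3:**
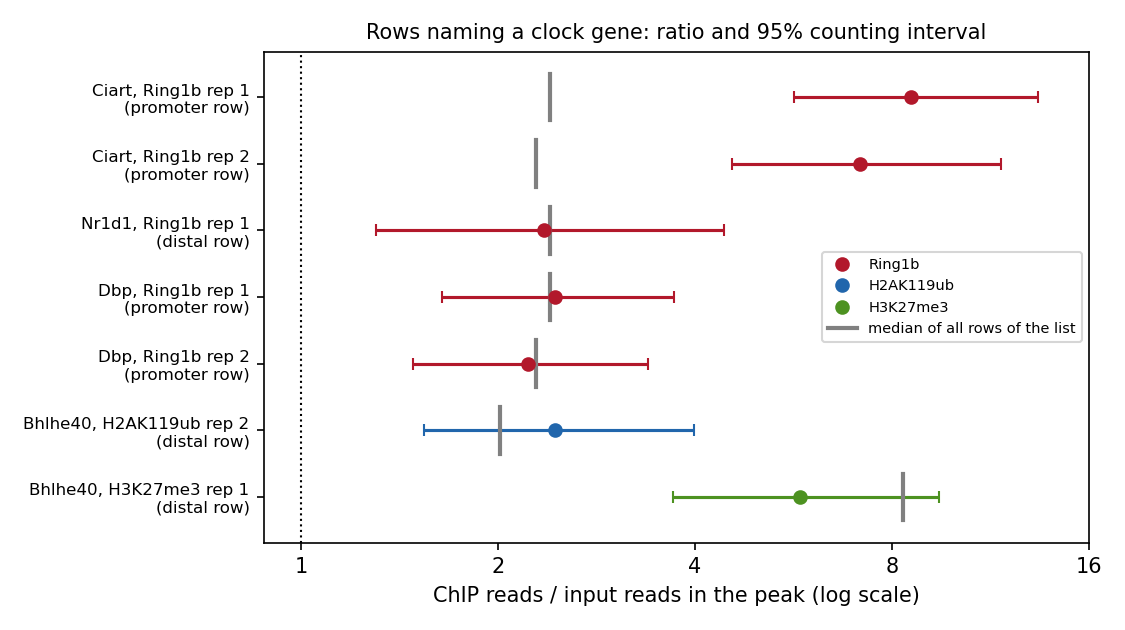
Ratio of ChIP to input reads (horizontal log axis) in each of the 7 rows that name a clock gene. Points are ratios, bars are 95% exact counting intervals, and grey ticks are the median ratio of all rows of the same list. Both Ciart points, 8.54 and 7.14, lie to the right of the ticks, while the Dbp and Nr1d1 points lie next to them.

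**Figure D4:**
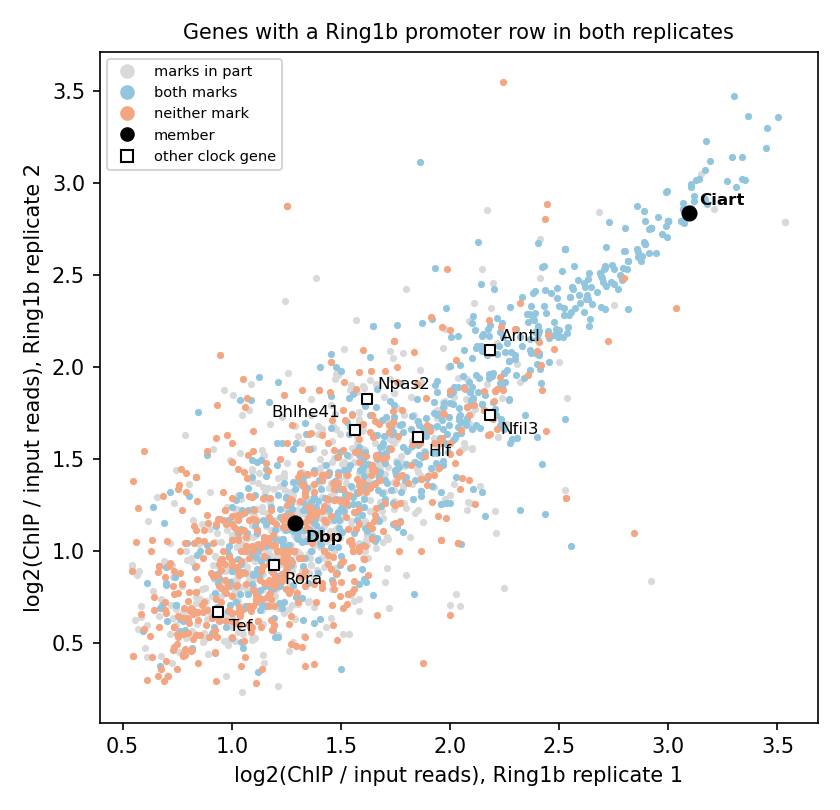
Log2 ratio of ChIP to input reads in Ring1b replicate 1 (horizontal) and replicate 2 (vertical) for the 1984 genes with a promoter row in both, coloured by the marks at their promoters. Filled circles are Ciart and Dbp and open squares are 7 further clock genes. Ciart lies among genes with both marks at the upper right, and Dbp within the dense middle.

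The Dbp peak also covered the promoter window of its gene in both replicates, and the peaks shared 1338 bp. It reached 337 bp and 281 bp into the Dbp gene (chromosome 7, 45705100 to 45710203). On its other side it overlapped the neighbouring gene Car11, which encodes a protein related to carbonic anhydrases, by 645 bp and 687 bp. Polycomb marks were close to Dbp but outside its Ring1b peak. H2AK119ub lay at the Car11 promoter in both replicates, 4.39 kb and 3.94 kb from the Dbp peak of Ring1b replicate 1, with ratios of 1.63 and 2.00. H3K27me3 lay there in replicate 1 alone, 3.77 kb away, at 9.45 times input, where the median of that list was 8.31. In replicate 2 of that mark the nearest peak was 126 kb away. Ring1b replicate 1 also had a separate peak in the Car11 gene, and Ring1b replicate 2 had none there.

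Nr1d1, the gene of REV-ERB alpha, had a single row, a distal Ring1b peak in replicate 1 (chr11:98782893-98783688, mm10, 796 bp). It held 40 ChIP and 17 input reads, a ratio of 2.35 with an interval of 1.30 to 4.43, and its deposited p of 0.0589 was the highest among the 7 rows. The peak lay 7516 bp from the gene (98767932 to 98775377), on the side of its start, and inside the span of the noncoding gene Gm31862 (98775411 to 98783728). Ring1b replicate 2 had no peak there, and its nearest peak was 60768 bp from the gene. The closest peaks of either mark were 99046 bp (H3K27me3 replicate 1) or more from Nr1d1. Its paralogue Nr1d2 was the most isolated of the 10 in 3 of the 6 lists: Ring1b replicate 1, H3K27me3 replicate 1 and H2AK119ub replicate 2. In H2AK119ub replicate 2 the peak nearest to Nr1d2 was at Nid2, 1511234 bp away. In the other lists it was at Thrb, a thyroid hormone receptor gene, 539184 to 541218 bp away.

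Bhlhe40 showed the reverse pattern, marks without Ring1b, in single replicates. An H2AK119ub peak of replicate 2 (chr6:108669720-108671162, mm10, 1443 bp) held 66 ChIP and 27 input reads, a ratio of 2.44 with an interval of 1.54 to 3.98. An H3K27me3 peak of replicate 1 (chr6:108669516-108671765, 2250 bp) held 133 and 23 reads, a ratio of 5.78 with an interval of 3.70 to 9.44. The H2AK119ub peak lay wholly inside the H3K27me3 peak. They lay 2795 bp and 2591 bp beyond the higher end of the gene (108660629 to 108666925), in rows classed as distal. The other replicate of each mark had no peak there: the nearest were 1129292 bp (H2AK119ub) and 1127389 bp (H3K27me3) away. A further, short H2AK119ub peak of replicate 2 lay on the other side of the gene, in a row that names 0610040F04Rik. The H2AK119ub ratio was 1.21 times the median of its list and the H3K27me3 ratio 0.696 times. The nearest Ring1b peaks were 90129 bp away in replicate 1 and 4639644 bp away in replicate 2.

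The Per and Cry genes had no row of their own, but Per2 and Cry2 had close neighbours with peaks. Hes6, a helix-loop-helix gene next to Per2, carried Ring1b at its promoter in both replicates, 2308 bp and 2446 bp from the Per2 gene, with 73 ChIP and 21 input reads in replicate 1 and 43 and 8 in replicate 2 (ratios 3.48 and 5.38). H2AK119ub also lay at Hes6 in both replicates, 2298 bp and 3385 bp from Per2, at 1.69 and 2.30 times input, while the closest H3K27me3 was 69086 bp away. Near Cry2, only H2AK119ub replicate 2 had a peak, at the promoter of Mapk8ip1, a scaffold protein gene, 1104 bp from Cry2 and at 2.21 times input. Near Per1, Hes7, a gene of the somite clock, had a Ring1b row in replicate 1 (1.60 times input, 11103 bp from Per1) and an H2AK119ub row in replicate 2 (1.49 times, 9246 bp). Their deposited p-values were 0.235 and 0.187. The nearest peak of any list was 83942 bp from Per3 and 201642 bp from Cry1.

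**Figure D5:**
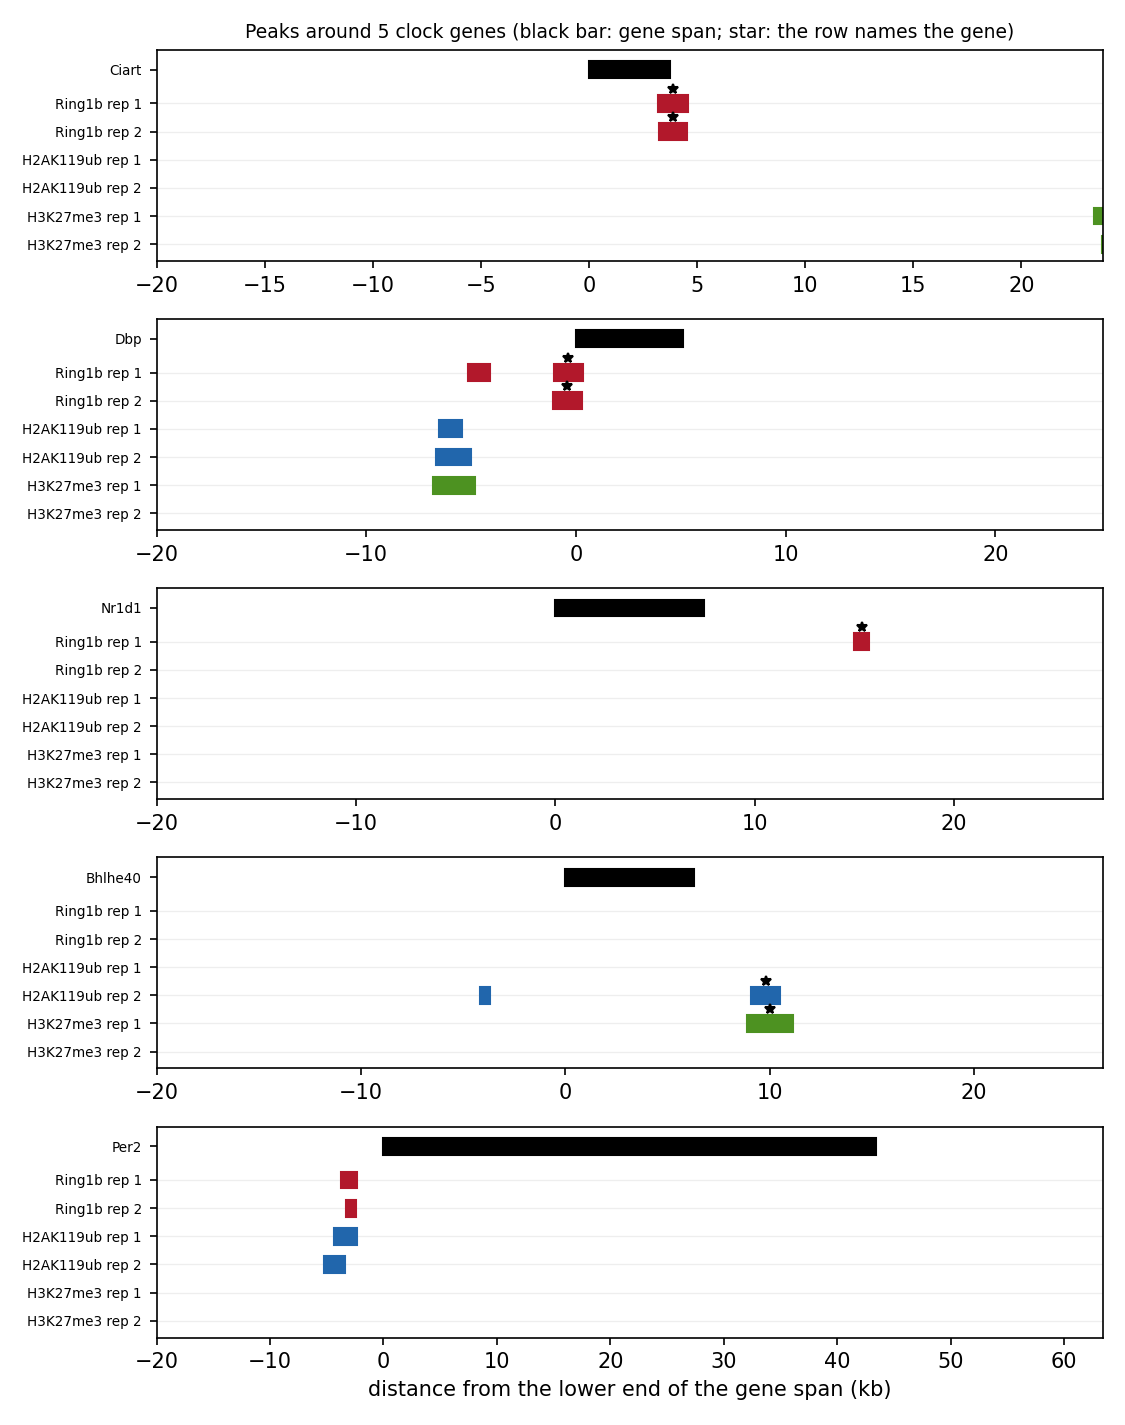
Peaks of the 6 lists (coloured bars, by antibody and replicate) around Ciart, Dbp, Nr1d1, Bhlhe40 and Per2. The horizontal axis is the distance in kb from the lower end of the gene span, the black bar is the gene, and a star marks a row that names it. Ring1b sits at one end of Ciart and Dbp with the marks away from it, and at Bhlhe40 both marks share a place without Ring1b.

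Across the 10 genes the median distance to the nearest Ring1b peak was 50.6 kb in replicate 1 and 105 kb in replicate 2. The H2AK119ub medians were 128 kb and 15.4 kb, and those of H3K27me3 were 58.9 kb and 170 kb. For each of the 3, the replicate with the longer list had the shorter median distance.

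A further 17 clock genes were drawn up for comparison, of which 11 had a row in at least 1 list, against 29.9% of all protein-coding genes. Those 11 were genes of the activator side (Clock, Arntl, Npas2 and Arntl2), the receptor genes Rora and Rorb, the relatives Nfil3, Tef, Hlf and Bhlhe41, and the kinase gene Csnk1e. Ring1b had a promoter row in both replicates at 7 of 17, H2AK119ub at 6, H3K27me3 at 5 and all 3 at 4. Among the 10 members the same counts were 2, 0, 0 and 0, and over all protein-coding genes the shares were 9.17%, 6.91%, 8.87% and 3.42%. Both sets were drawn up with results of these lists known, so the counts side by side describe these genes and were not tested.

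Relatives of the members differed among themselves. Of the D-box family, Hlf, like Dbp an activator, carried Ring1b and both marks. Its Ring1b ratio was 3.34 ± 0.378 (SD, n = 2) and its H2AK119ub ratio 1.85 ± 0.0245. Nfil3, which represses through the same sites, also carried all 3, with Ring1b at 3.94 ± 0.847. Its H2AK119ub ratio was lower, at 1.47 ± 0.120, and the counting interval of that row in replicate 1 (0.956 to 2.02) included 1. Another H2AK119ub promoter row of Nfil3 in replicate 1 had an interval of 1.17 to 3.35. Tef, another D-box activator, resembled Dbp in having Ring1b and no row of either mark, but over 12 and 17 input reads (1.75 ± 0.232), with counting intervals that included 1 in both replicates. The Tef rows of the 2 replicates shared only 157 bp, and their deposited p-values were 0.274 and 0.187. Bhlhe41 (Dec2), the paralogue of Bhlhe40, carried all 3, with Ring1b at 3.06 ± 0.142 and peaks of 6865 bp and 4683 bp.

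Of the activator side, only Arntl had Ring1b and both marks by promoter rows of both replicates. Arntl, which REV-ERB receptors and Ciart restrain at the gene or protein level, had the highest mean Ring1b ratio of the 7 further clock genes with Ring1b in both replicates. Its Ring1b ratio was 4.41 ± 0.194 (SD, n = 2), its H2AK119ub ratio 2.40 ± 0.431, and its H3K27me3 ratios 15.1 and 5.91 in replicates 1 and 2. Those 2 H3K27me3 rows held 191 and 135 ChIP reads per kilobase but 12.7 and 22.8 input reads. The 2 rows thus differed in input as well as ChIP reads, and the source of that difference was not tested. The median ratios of the 2 H3K27me3 lists were 8.31 and 4.68. Npas2, a substitute for Clock, had Ring1b at 3.31 ± 0.331 with H2AK119ub in both replicates and H3K27me3 in replicate 2 alone. Clock itself had promoter rows only in single replicates, Ring1b in replicate 2 (1.58 times input) and H3K27me3 in replicate 1 (5.88 times). Rora had Ring1b at 2.09 ± 0.278 and marks in gene body rows of single replicates, and Rorb had both marks in both replicates with Ring1b in replicate 2 alone. Arntl2 and Csnk1e had only a distal row in 1 list each. Ciart, with its mean of 7.84, had a higher Ring1b ratio in each replicate than the 7 further clock genes with Ring1b promoter rows in both (Arntl, Npas2, Rora, Nfil3, Tef, Hlf and Bhlhe41).

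Of 17 output genes and regulators of the clock, 2 had Ring1b promoter rows in both replicates, and both lacked the marks. Over all genes these shares were 9.17% and 2.81%. The 2 were Wee1, a cell cycle kinase gene with E-boxes in its promoter, at 1.55 and 1.34 times input, and Ube3a, a ubiquitin ligase gene, at 1.51 and 2.92 times. The counting interval included 1 for Wee1 in replicate 2 (0.849 to 2.14) and for Ube3a in replicate 1 (0.993 to 2.33). In replicate 1 the Wee1 interval was 1.07 to 2.27, yet the deposited p-values of Wee1 were 0.328 and 0.283. With library totals unknown, an interval above 1 does not by itself show enrichment. The ratios of Wee1 and Ube3a lay below those of Ciart in both replicates. Ppara, a nuclear receptor gene, had H2AK119ub in both replicates and Ring1b in replicate 2.

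Genes were also sorted by the number of E-boxes in their windows, as a description over 17274 genes with a window. Ring1b lay at 8.41% of 15716 genes with none, 11.4% of 1407 with 1, 8.46% of 130 with 2 and 9.52% of 21 with at least 3. Ring1b with neither mark lay at 2.60%, 4.76%, 5.38% and 4.76% of the same groups of genes. The Ring1b genes with at least 3 E-boxes were 2, Ciart and Ptprs, a receptor phosphatase gene with a mean ratio of 4.10. Ciart was the one of the pair with neither mark.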

How the data were processed

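ChIP-seq peak lists of 6 of 14 samples (Ring1b, H2AK119ub and H3K27me3, 2 replicates each) were read, and 8 samples were not analysed here. The submitters' processing notes name mm10 and the tools MACS2 2.1.0, Bowtie2 2.2.3, Bowtie 1.1.1, SAMtools 0.1.19 and Trim Galore 0.4.1, without saying which step each did. Per the file headers, a deposited row gives a maximum height (coverage signal), the counts of ChIP and of input reads per strand, a p-value, a location class and gene names. These are the authors' own values. Their test, any scaling, whether coordinates count from 0 or 1, and library totals were not stated in the labels or headers, so depth is known only as reads in peaks.

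The ratio of ChIP to input reads, its 95% exact binomial interval, ranks and motif counts were computed with Python 3.11.15 and SciPy 1.17.1. A gene had a factor or mark if each replicate list named it in a promoter row. With several rows, those sharing most bases between replicates gave the ratio. Ranks against other Ring1b genes and the scatter plot used the row with most ChIP reads. Symbols were matched directly or by a unique synonym (0 member rows). Matching and motif search were tested on simulated data.

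Named genes were the 10 members, further clock genes with a row, outputs with Ring1b in both replicates, and the 3 genes nearest to Ciart. Neighbours, Ppara, Ptprs, Mllt1, Rab8a, Cdkn2c and Mga were chosen after their values were seen. Members and lists were chosen with earlier results of these data known. Alternatives used 1 replicate, a deposited p of at most 0.001, other location classes, coordinates, union lists, overlap, a list median, 1 added read and a motif variant.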

Additional observations from a re-analysis of the deposited data

How the results depend on the processing

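Of 41 alternative values for 8 results, 36 kept their count within 1.5 times or moved by less than the SD. Some of these could not have come out otherwise, so the 36 does not measure stability. With 2 replicates, leaving out 1 always moves a mean by less than the SD. No member had a promoter row of either mark in any list, so their counts of 0 could not rise with 1 replicate, union lists or a stricter p. Requiring a deposited p of at most 0.001 left 1 of the 10 genes with Ring1b, and 1 with Ring1b and neither mark, which was Ciart in both cases: Dbp was lost. Dividing by the list median gave 3.34 for Ciart and 0.995 for Dbp, a change of scale by construction. Counting the variant CACGTT with the E-box raised the genes with a motif from 3 to 5. Leaving out a replicate gave 7.14 to 8.54 for Ciart, 2.22 to 2.44 for Dbp, and 7 to 9 of the 17 further clock genes with Ring1b, Clock and Rorb being added without replicate 1. Ciart and Dbp stayed in the class with Ring1b and neither mark by any location class, by coordinates within 2000 bp, and by overlap of peaks. They also stayed with either replicate alone and in the union lists, but there they had to. Those rules ask for less than the main rule, and the union lists are made of rows of the replicate lists. The share of all genes in that class ran from 0.661% (deposited p of at most 0.001) to 8.96% (union lists). No paired analysis was possible because the results are descriptions of peak lists and come from no test. Few input reads, from 17 to 36 in the 7 rows that name a member, limit each ratio.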
